A study of Caenorhabditis elegans with 2 samples.

Results

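Between neighbouring genes that point away from each other lies a stretch of DNA that starts both of them. The regions described here are those ChIP-seq regions whose summit fell in such a stretch. In ChIP-seq, DNA held by a chosen protein is pulled down and sequenced, and places with an excess of reads are called as regions. A region was a member when its summit lay in no annotated gene of any kind, more than 100 bp from every tRNA, snoRNA and snRNA gene, and between a protein-coding gene on the minus strand to its left and one on the plus strand to its right. Position alone chose the members. Of the 21824 regions called permissively on the pooled reads, 7802 lay on nuclear chromosomes outside every gene, and 3110 of these were members. The protein tagged was F13H6.1, encoded by bcl-11, in strain OP471 of C. elegans, with the genotype unc-119(tm4063) III; wgIs471. Its worms express F13H6.1 with GFP-FLAG at the C terminus. The material was whole hermaphrodite late embryos, 5 hours after synchronization by egg bleaching, and the chromatin was sonicated before precipitation with an anti-GFP antibody. The series holds 1 group of 2 biological replicates and no other genotype or condition. Whole embryos mix all cell types, and the labels do not give the number of copies of the transgene or what drives it.

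The gene bcl-11 is named after the mammalian BCL11 proteins, zinc finger transcription factors known from blood cells and neurons. A gap between divergent genes can hold the promoters of both neighbours, a gap between genes in tandem holds at most the promoter of the downstream one, and a gap between convergent genes holds only gene ends. In C. elegans many transcripts are trans-spliced, so an annotated gene start is often the splice site and not the place where transcription begins, and many genes in tandem share an operon with a single promoter at its head.

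The DNA under 4 of the strongest members is shown because 3 of them share the 6-letter word TGCGGC, whose frequency is described after the gene lists. Each is the summit with 50 bp to either side from the WBcel235 (ce11) genome, in lower case with that word in capitals, as its reverse complement where it lies on the minus strand. The strongest member, between K12H4.6 and K12H4.5, has no copy.
K12H4.6/K12H4.5, chrIII:8043905-8044005, plus strand: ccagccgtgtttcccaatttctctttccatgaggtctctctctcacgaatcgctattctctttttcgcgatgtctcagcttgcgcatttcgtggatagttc
mlcd-1/idhg-1, chrIII:4568683-4568783, plus strand: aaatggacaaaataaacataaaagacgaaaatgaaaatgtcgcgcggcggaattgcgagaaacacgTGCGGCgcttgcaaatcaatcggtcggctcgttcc
ears-2/uncp-18, chrIV:390451-390551, plus strand: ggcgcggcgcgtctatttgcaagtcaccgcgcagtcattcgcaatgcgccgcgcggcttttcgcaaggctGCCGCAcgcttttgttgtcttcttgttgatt
ecps-1/atx-2, chrIII:10461296-10461396, plus strand: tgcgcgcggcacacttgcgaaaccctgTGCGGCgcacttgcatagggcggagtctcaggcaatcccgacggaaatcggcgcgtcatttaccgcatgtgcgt

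Sequences of 5 other members are shown because their windows hold 1 of 2 repeats found at many places in the genome, described after the gene pairs. Capitals mark the 20-letter word that defines the repeat: the first 3 windows share one word and the last 2 another, in either orientation.
eel-1/ivph-3, chrIV:3050825-3050925, plus strand: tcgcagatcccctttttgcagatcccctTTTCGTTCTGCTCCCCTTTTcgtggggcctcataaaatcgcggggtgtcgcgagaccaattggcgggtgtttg
spl-1/rps-24, chrIV:385492-385592, plus strand: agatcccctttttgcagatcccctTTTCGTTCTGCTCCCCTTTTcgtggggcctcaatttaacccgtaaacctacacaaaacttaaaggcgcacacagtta
nrde-2/atad-3, chrII:10248505-10248605, plus strand: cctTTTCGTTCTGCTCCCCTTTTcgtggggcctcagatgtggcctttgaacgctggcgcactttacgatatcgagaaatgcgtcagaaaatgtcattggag
C55A6.1/C55A6.10, chrV:11505159-11505259, plus strand: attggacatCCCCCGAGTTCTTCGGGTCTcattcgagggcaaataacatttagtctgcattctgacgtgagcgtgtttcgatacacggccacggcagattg
czw-1/F20D12.12, chrIV:7947046-7947146, plus strand: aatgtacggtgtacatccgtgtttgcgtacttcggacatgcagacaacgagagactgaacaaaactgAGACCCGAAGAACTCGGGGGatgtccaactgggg

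Members passed the authors' reproducibility threshold more often than regions in other gaps between genes. A site is a pooled region that the authors kept at a threshold on the irreproducible discovery rate, which asks how well the rank of a region holds between replicates; over the whole pooled list 1065 regions, 4.88%, were sites. No region below the threshold had a pooled signal above that of the lowest site, 82.13. Passing therefore also splits the regions by pooled signal, and the shares do not tell signal from reproducibility. Of the 3110 members 314 were sites (10.1%, 95% Wilson interval 9.09 to 11.2). Between tandem genes the share was 239 of 4101 (5.83%, 5.15 to 6.59), an odds ratio of 1.82 in favour of the divergent gaps (1.52 to 2.16, two-sided Fisher's exact p = 2.18e-11). Between convergent genes it was 14 of 471 (2.97%, 1.78 to 4.93), an odds ratio of 3.67 (2.13 to 6.32, exact p = 2.80e-08). When the comparison used just the 1065 strongest regions below the threshold, the second odds ratio was 1.05 (0.468 to 2.35, exact p = 1), and the first 1.50 (1.18 to 1.92, exact p = 0.00108). Regions come from 1 experiment and are not replicates, so these tests count regions and carry no error over worms.

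Divergent gaps also held a site more often when each gap was counted once. A site was in 292 of 4210 divergent gaps (6.94%, 6.21 to 7.74) and 226 of 10151 tandem gaps (2.23%, 1.96 to 2.53). The odds ratio was 3.27 (2.74 to 3.91, exact p = 6.72e-39). A region, site or not, was in 1760 divergent gaps (41.8%) and 2523 tandem gaps (24.85%). The count of gaps therefore joins having a region with passing the threshold, and their parts were not separated. Divergent gaps held 26.5 sites per Mb of gene-free DNA, tandem gaps 13.2 and convergent gaps 4.16. Of the divergent gaps with a site, 274 had 1, 16 had 2, 1 had 3 and 1 had 5. In 10 of the 16 gaps with 2 the sites overlap, and in 9 of them the strongest overlapping region of each replicate is the same for both. Such pairs are not independent, and the replicate values cannot show whether they are separate sites. Divergent gaps were also longer, with a median of 1404 bp against 866 bp for tandem gaps, so the shares were set side by side at like lengths. In gaps of up to 500 bp, 7.17% of divergent and 1.02% of tandem gaps had a site, an odds ratio of 7.48 (4.95 to 11.3). In gaps over 5000 bp the shares were 9.15% and 6.89%, an odds ratio of 1.36 (0.974 to 1.90). The odds ratios differed between the 5 length classes (Breslow-Day chi-square test of homogeneity over gaps, p = 6.59e-10). Short tandem gaps include gaps inside operons, which the annotation used here does not mark, and their part in this difference was not tested.

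**Figure D1:**
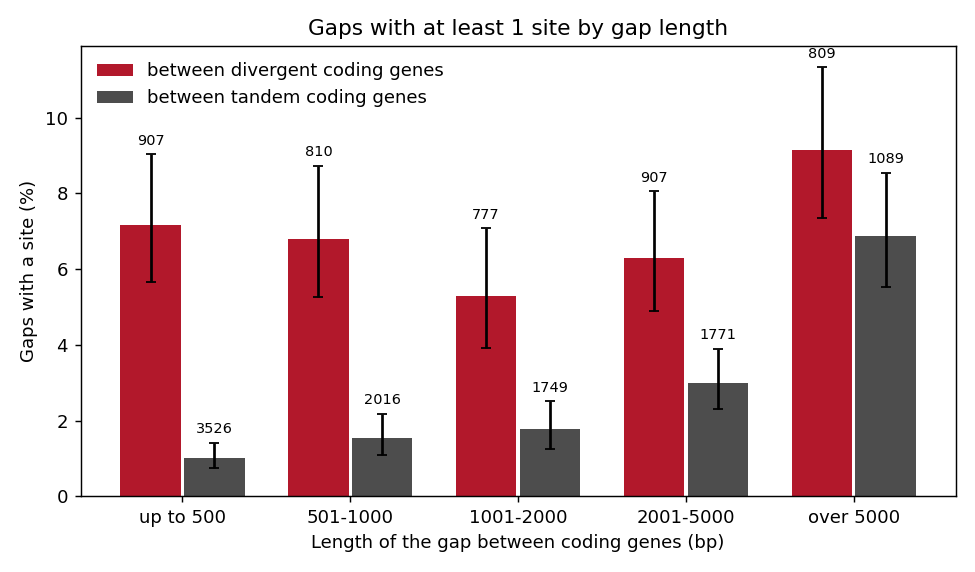
Share of gaps with at least 1 site (vertical axis, percent) by gap length (horizontal axis, bp) for divergent and tandem gaps, with 95% Wilson intervals as bars and the number of gaps above each bar. Divergent gaps stay between 5.28% and 9.15% at every length, while tandem gaps go from 1.02% in the shortest class to 6.89% in the longest.

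Along the chromosomes the share of members that were sites ran from 8.65% on X (52 of 601, 6.66 to 11.2) to 12.1% on chromosome I (65 of 535, 9.65 to 15.2), intervals that overlap. Counted by gaps, 10.2% of divergent gaps on chromosome I had a site (63 of 616, 8.08 to 12.9) and 4.05% of those on chromosome V (42 of 1037, 3.01 to 5.43), intervals that do not overlap. Chromosome V had the most divergent gaps of the 6 chromosomes.

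Member sites lay close to a gene start. The median distance of the summit from the nearer start was 241.5 bp for member sites, with quartiles at 137 and 663 bp, against 784 bp for sub-threshold members and 546 bp for tandem sites. Of the 314 sites 222 lay within 500 bp of a start (70.7%, 65.4 to 75.5), against 1173 of 2796 sub-threshold members (42.0%, 40.1 to 43.8), an odds ratio of 3.34 (2.59 to 4.31, exact p = 2.54e-22). Both starts were within 500 bp for 94 sites (29.9%, 25.1 to 35.2) and for 330 sub-threshold members (11.8%). One start was that near for 128 sites and none for 92 (29.3%). The sites sat in shorter gaps, with a median length of 1642 bp against 5350 bp, which brings both starts nearer, and these distances were not matched for gap length. Within gaps of up to 500 bp the sites were the farther from the nearer start, with a median of 118 bp against 78 bp for sub-threshold members, and likewise at 500 to 1000 bp (203 against 179 bp). In longer gaps they were the nearer, with 259.5 against 298 bp at 1000 to 2000 bp, 382 against 634 bp at 2000 to 5000 bp, and 1441 against 2121 bp beyond that. The nearer gene was the one on the minus strand for 155 sites (49.4%, 43.9 to 54.9), so neither side was preferred beyond counting error.

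The difference between divergent and tandem gaps depended on the distance from the start. Among members within 100 bp of a start 16.7% were sites (60 of 360) against 6.64% of tandem regions (19 of 286), an odds ratio of 2.81 (1.64 to 4.83). Beyond 100 and up to 250 bp the shares were 17.6% and 9.40%, an odds ratio of 2.06 (1.41 to 2.99). The shares were 13.3% and 10.9% up to 500 bp (1.26, 0.850 to 1.87), 8.46% and 5.40% up to 1000 bp (1.62, 0.962 to 2.73), and 4.45% and 3.72% up to 2000 bp (1.21, 0.673 to 2.16). Beyond 2000 bp they were 4.46% and 4.23%, an odds ratio of 1.06 (0.701 to 1.59). Only the intervals of the 2 nearest classes exclude 1. The odds ratios differed between the 6 distance classes (Breslow-Day chi-square test of homogeneity over regions, p = 0.0325), and over all of them the Mantel-Haenszel odds ratio was 1.56 (1.31 to 1.87).

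**Figure D2:**
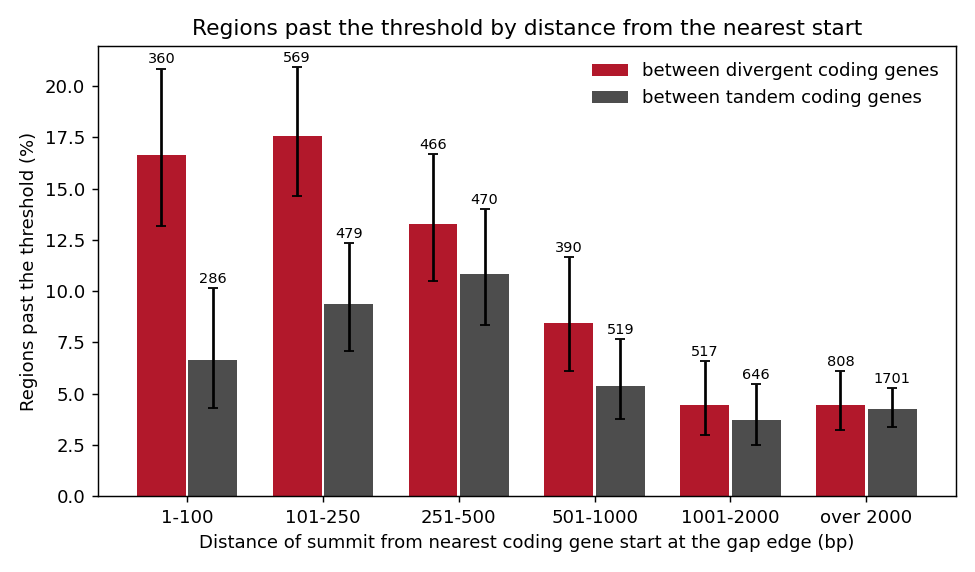
Share of regions past the threshold (vertical axis, percent) by distance of the summit from the nearest coding gene start at the edge of the gap (horizontal axis, bp), with 95% Wilson intervals and the number of regions above each bar. Divergent regions stand above tandem ones in all 6 classes, by the most in the 2 nearest, and in the farthest the shares are 4.46% and 4.23%.

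In the shortest gaps the sites sat towards the middle. In gaps of up to 500 bp the summit lay in the middle of 3 equal parts for 37 of 66 sites (56.1%, 44.1 to 67.4), against 81 of 219 sub-threshold members (37.0%, 30.9 to 43.6). In gaps of 2000 to 5000 bp the order was the other way, with 10 of 61 sites (16.4%, 9.16 to 27.6) and 178 of 613 sub-threshold members (29.0%, 25.6 to 32.8). Over all gap lengths the shares were 30.6% and 29.6%. These shares are descriptions and were not tested. The sites were also richer in GC, with a median of 49.5% within 50 bp of the summit, against 41.6% in sub-threshold members and 50.5% in tandem sites.

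The replicates were compared region by region. A member was found in a replicate when it overlapped a region of that replicate's own list by at least 1 bp. Both replicates held 1740 of the 3110 members (55.9%, 95% Clopper-Pearson interval 54.2 to 57.7), against 48.5% of the whole pooled list and 51.3% of tandem regions (49.7 to 52.8). Of the sites 313 were in both. The threshold itself used the agreement of the replicates, so that number restates the selection in part. By rank, 215 sites (68.5%) were among the 1065 highest regions of both replicates, 42 of replicate 1 alone, 53 of replicate 2 alone and 4 of neither. The median rank of the sites was 544 in replicate 1 and 503 in replicate 2. For the 1740 members with a value in each replicate, the signals had a Spearman's rho of 0.66, a description across regions that share the same libraries.

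**Figure D3:**
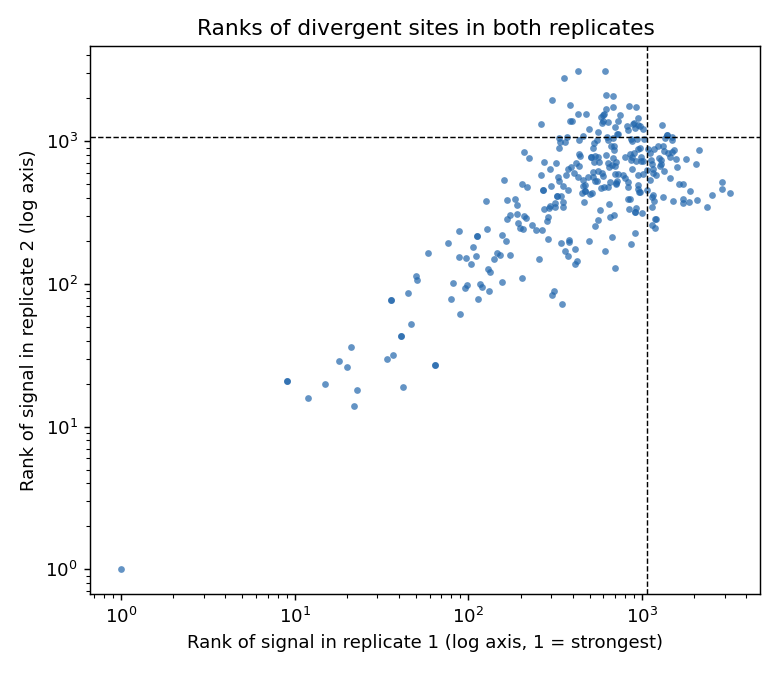
Rank of each member site by signal in replicate 1 (horizontal log axis) and replicate 2 (vertical log axis), where 1 is the strongest region of that list and each point is 1 site. Dashed lines mark rank 1065, and 215 sites lie below both lines.

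The strongest member sites lay between genes of varied roles, and the replicates ranked them alike. Signals are those of the authors' peak caller, on a scale that is not stated, and they order regions within a list only. All of the 15 strongest ranked within the first 64 regions of replicate 1 and the first 43 of replicate 2. The strongest, between K12H4.6 and K12H4.5, had a signal of 1223 in the pooled list, 632.1 in replicate 1 and 593.8 in replicate 2, and was first in all 3. It lay 532 bp from the start of K12H4.5 in a gap of 1611 bp.

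Next came a site 64 bp from the start of idhg-1, of the citric acid cycle, and 603 bp from that of mlcd-1, of malonyl-CoA breakdown, with signals of 209.5 and 203.8 in replicates 1 and 2. Of the sites near both starts the tightest of the 15 was that of ears-2, which charges mitochondrial tRNA with glutamate, and uncp-18, whose gap is only 91 bp long. Its summit lay 33 bp and 59 bp from the starts, with signals of 202.1 and 189.5. The site at atx-2, the worm ataxin-2 gene, lay 43 bp from its start and 795 bp from that of ecps-1, with signals of 196.1 and 171.7. That of tasp-1, a threonine aspartase gene, lay 54 bp from its start and 731 bp from that of K01G5.10, with signals of 181.8 and 209.0. Each of these sites has its summit within 64 bp of at least 1 start, and all ranked within the first 22 regions of replicate 1 and the first 29 of replicate 2.

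Other sites among the 15 strongest stood beside regulators of RNA and chromatin. The site of mex-1, whose RNA-binding protein acts in early embryonic cell fate, lay 179 bp from the start of its neighbour W03C9.5 and 914 bp from that of mex-1, with signals of 185.0 and 175.4. The gap of lin-35, the worm retinoblastoma gene, and vps-51, a gene of vesicle tethering, is 417 bp long, and its site lay 234 bp and 184 bp from the starts. Its signal was 138.3 in replicate 1, rank 42, and 191.8 in replicate 2, rank 19. The site of chaf-2, of the chromatin assembly factor, and Y71G12B.30 lay 246 bp and 253 bp from the starts, near the centre of its 498 bp gap, with signals of 149.3 and 162.7. The site of jmjd-1.2, a histone demethylase gene, and F29B9.11 lay 434 bp and 356 bp from the starts, with signals of 138.5 and 149.6. The site of ain-1, whose protein works with microRNAs, lay 922 bp from its start and 3005 bp from that of F59C12.3, with 122.3 in replicate 1 and 175.1 in replicate 2. The gaps of jmjd-1.2 and ain-1 each hold another site that overlaps the one named and matches the same region in each replicate. Replicate signals in these gaps therefore cannot be assigned to either site alone.

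The rest of the 15 were farther from starts or beside genes with no role given here. The site of Y41D4A.6 and Y41D4A.4 lay 242 bp and 256 bp from the starts, with signals of 183.7 and 156.2. The site of ftt-2, a 14-3-3 protein gene, lay 591 bp from its start in a gap of 12050 bp, with F52D10.4 on the other side. The site between prhg-1 and nas-30, an astacin protease gene, was 4965 bp from the nearer start, the most distant of the 15. The gap of ivph-3 and eel-1, which encodes a ubiquitin ligase of the HECT family, held 2 of the 15, at 556 bp and 771 bp from the eel-1 start, with pooled signals of 407.8 and 305.3. These overlap and matched the same region in each replicate, ranked 9 and 21, so they are not independent.

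Just under the threshold stood the members at smu-2, a splicing gene, and Y49F6B.8 with a signal of 81.99, and at rab-10, a small GTPase gene, and knl-2, a kinetochore gene, with 81.77. The lowest signal of any site in the pooled list was 82.13. At the edge of the distance rule, the members closest to a small RNA gene lay 110 bp from one, between ceh-39 and T26C11.8, and 113 bp from one, between T08A9.13 and sng-1, with signals of 45.01 and 43.20. The rule left out 41 regions between divergent genes that were within 100 bp of such a gene, of which 12 were sites.

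The gap with the most member sites was the one upstream of bcl-11, the gene that was tagged. This gap, on chromosome V from 6336120 to 6356024, separates bcl-11 from T28C12.6 and held 5 sites among 9 members. Seen from the bcl-11 start the sites lay 1584, 3577, 4734, 7755 and 11214 bp upstream. Their pooled signals were 156.2, 84.66, 241.0, 105.5 and 110.1. In replicate 1 the signals in the same order were 80.82, 36.11, 113.0, 39.34 and 60.04, and in replicate 2 they were 80.37, 49.13, 126.1, 57.61 and 43.96. The site at 4734 bp was highest in both replicates and the site at 1584 bp second in both, while the order of the other 3 differed. Of the 109 divergent gaps over 15 kb long 15 had a site, and none of the others had more than 3.

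The cluster had sharp edges. In windows of 10 kb, the window ending at the bcl-11 start held 11 pooled regions of any class with 7 sites, the window before it 7 with 2 sites, and the window from the start onwards 9 with 4 sites. The other 9 windows within 60 kb held 0 to 2 regions and 0 sites. The chromosome as a whole had 1.68 regions and 0.0707 sites per 10 kb. The genotype lists the transgene wgIs471 and no change at bcl-11 itself. Reads from the transgene and from the chromosome cannot be told apart in these lists, so extra copies of the DNA and binding of the protein there cannot be told apart either.

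**Figure D4:**
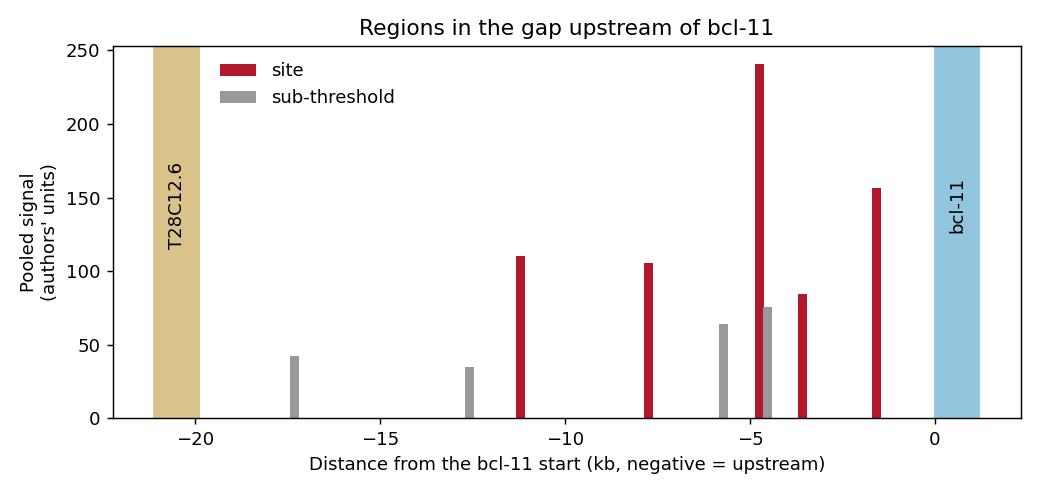
Pooled signal in the authors' units (vertical axis) of the 9 members in the gap between T28C12.6 and bcl-11 against distance from the bcl-11 start (horizontal axis, kb), with sites and sub-threshold members in different colours and the neighbouring genes as shaded blocks that are not drawn to their full length. All 5 sites lie within 11214 bp of the start, the highest at 4734 bp with a signal of 241.0.

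A gap of 15313 bp on chromosome III between F54F12.1 and Y39E4B.6 held 3 sites among 10 members. They lay 85, 2256 and 8109 bp from the Y39E4B.6 start. In replicate 1 their signals were 106.4, 45.87 and 132.8, and in replicate 2 88.56, 71.26 and 102.5, so the farthest of them was the strongest in both.

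Which kinds of genes border the sites was described with 23 gene lists. A gene was counted when a site lay in the divergent gap at its start, at any distance, and over all 8420 genes at divergent gaps 584 were counted (6.94%). For 307 of the 584, or 3.65% of the 8420, the site was within 500 bp of the gene's own start. Both neighbours of a gap share its site, so genes of one gap are not independent. These lists were chosen with results of these data known, and their shares are set beside that background with no test. Body wall muscle genes stood highest, with 9 of 26 (34.6%, 95% Wilson interval 19.4 to 53.8). They were led by pat-3, the integrin beta subunit of muscle attachments, and unc-112, the kindlin that works with it. The pat-3 site had signals of 83.36 in replicate 1 and 73.81 in replicate 2 and lay 2662 bp from its start, and the unc-112 site had 83.27 and 69.41 at 442 bp. Of the 9 genes 5 had the site within 500 bp of their own start, a part much like the 307 of 584 over all counted genes. With the list of either replicate alone, its 1065 strongest regions taken as sites, 7 muscle genes were counted. With only the 532 strongest sites 4 were counted.

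Genes of the cytosolic ribosome followed, with 14 of 53 (26.4%, 16.4 to 39.6), and 13 of the 14 had a site within 500 bp of their own start. The rps-24 site had signals of 136.1 and 136.5 in replicates 1 and 2, 345 bp from the start, and the rpl-15 site 114.8 and 106.6 at 347 bp. The rps-24 site holds 1 of the repeats shown above. With either replicate alone 12 genes were counted, and with only the 532 strongest sites 9. With regions within 500 bp of a small RNA gene left out, 11 were counted. Genes of the mitochondrial ribosome stood near the background, with 2 of 33 (6.06%, 1.68 to 19.6), mrpl-20 and mrpl-18.

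Genes of expression and cell division lay above the background. Of 33 chromatin genes 8 were counted (24.2%, 12.8 to 41.0), led by set-5, a SET domain gene whose site is that of unc-112, and chd-7, a chromodomain helicase gene. These 2 sites lay 1870 and 1008 bp from the set-5 and chd-7 starts, and 5 of the 8 were within 500 bp. Of 36 genes matched by name to DNA replication and the cell cycle 8 were counted (22.2%, 11.7 to 38.1), led by cdc-48.2 and cdc-7. The 3 of the 8 with the site within 500 bp of their own start were rfc-4, cdk-9 and cdk-7. The name pattern takes in genes of other roles, such as cdc-48.2, of protein unfolding, and cdk-9, a transcription kinase gene. Nuclear pore and transport genes had 6 of 29 (20.7%, 9.85 to 38.4), led by npp-8 and ima-1, and splicing genes 6 of 31 (19.4%, 9.19 to 36.3), led by snr-1 and prp-19. Genes of RNA polymerase, TFIID and Mediator had 4 of 17 (23.5%, 9.56 to 47.3), led by taf-11.2 and taf-4. The taf-11.2 site lay 4407 bp from its start and the taf-4 site 324 bp, and 2 of the 4 were within 500 bp. Translation factors had 4 of 22 (18.2%, 7.31 to 38.5), with eif-3.E and iff-2, each within 207 bp of the start. These intervals all lie above 6.94%, but the counts are small. Without replicate 2 the splicing count was 3 of 31, and with only the 532 strongest sites the counts were 2 for splicing, 1 for RNA polymerase, TFIID and Mediator, 2 for translation factors, 3 for the nuclear pore, 5 for chromatin and 4 for replication.

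Lists of protein handling, vesicle traffic and respiration lay between 16.1% and 18.8%, apart from the proteasome. Chaperone genes had 7 of 40 (17.5%, 8.75 to 32.0), led by dnj-29 and dnj-28 of the DnaJ family, and vesicle traffic genes 7 of 39 (18.0%, 8.98 to 32.7), led by vps-51 and snx-13. Ubiquitin enzymes had 6 of 37 (16.2%, 7.65 to 31.1), led by eel-1 and usp-4. Of them 1 was within 500 bp of the start, 2.70% of the 37 against 3.65% over all genes at divergent gaps. Genes on the respiratory chain list had 5 of 31 (16.1%, 7.09 to 32.6), led by cox-5B at 23 bp and atp-5 at 265 bp. The name pattern missed ndua-2, a complex I gene that shares the site of dnj-29, 365 bp from its start. The pooled signal of that site, 231.2, was above the 157.7 at cox-5B. Aminoacyl-tRNA synthetases had 3 of 16 (18.8%, 6.59 to 43.0), led by ears-2 and mars-1. Proteasome genes had 2 of 22 (9.09%, 2.53 to 27.8), rpn-7 and rpn-3, and 0 without replicate 1. The intervals of the synthetases and the proteasome include the background. With only the 532 strongest sites the counts were 4 for chaperones, 4 for vesicle traffic, 1 for the respiratory chain and 0 for the proteasome. Pan-neuronal genes, a list of another kind, had 2 of 8 (25%, 7.15 to 59.1), unc-64 and unc-33, and neither site was within 500 bp of their starts.

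Genes on the chemoreceptor, F-box and BATH, and C-type lectin lists bordered a site less often than the background, with intervals that lie below 6.94%. Of 478 genes on the chemoreceptor list at divergent gaps 5 were counted (1.05%, 0.448 to 2.43), led by sre-1 and sri-5. Of 157 on the F-box and BATH list 4 were counted (2.55%, 0.995 to 6.37), led by fbxb-85 and math-33. The lists were matched by name. The counted srrt-1, with its site 40 bp from the start, is not a chemoreceptor gene, and math-33 is neither an F-box nor a BATH gene. Of 99 C-type lectin genes 0 were counted, which allows a share of up to 3.74% by the Wilson interval, and of 48 neuropeptide and insulin genes 0, which allows up to 7.41%. Without replicate 1, 1 C-type lectin gene was counted. Collagens had 2 of 58 (3.45%, 0.951 to 11.7), col-71 at 277 bp and col-105 at 12279 bp from the start. The intervals of the collagens and of the neuropeptide and insulin genes include the background. Without replicate 2 the counts were 2 for F-box and BATH genes and 1 for collagens. Transcription factor families lay near the background, with 9 of 108 nuclear hormone receptor genes (8.33%, 4.45 to 15.1), led by nhr-1 and nhr-274, and 2 of 33 homeobox genes (6.06%, 1.68 to 19.6), or 1 without replicate 1. The nhr-1 and nhr-274 sites lay 8116 and 13928 bp from their starts, and 3 of the 9 receptor genes had the site within 500 bp. With only the 532 strongest sites the counts were 4 for nuclear hormone receptors, 2 for chemoreceptors, 2 for F-box and BATH genes, 1 for collagens and 0 for homeobox genes. For ceh-24 and ceh-58, the homeobox genes, the sites lay 4555 and 12919 bp from their starts.

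**Figure D5:**
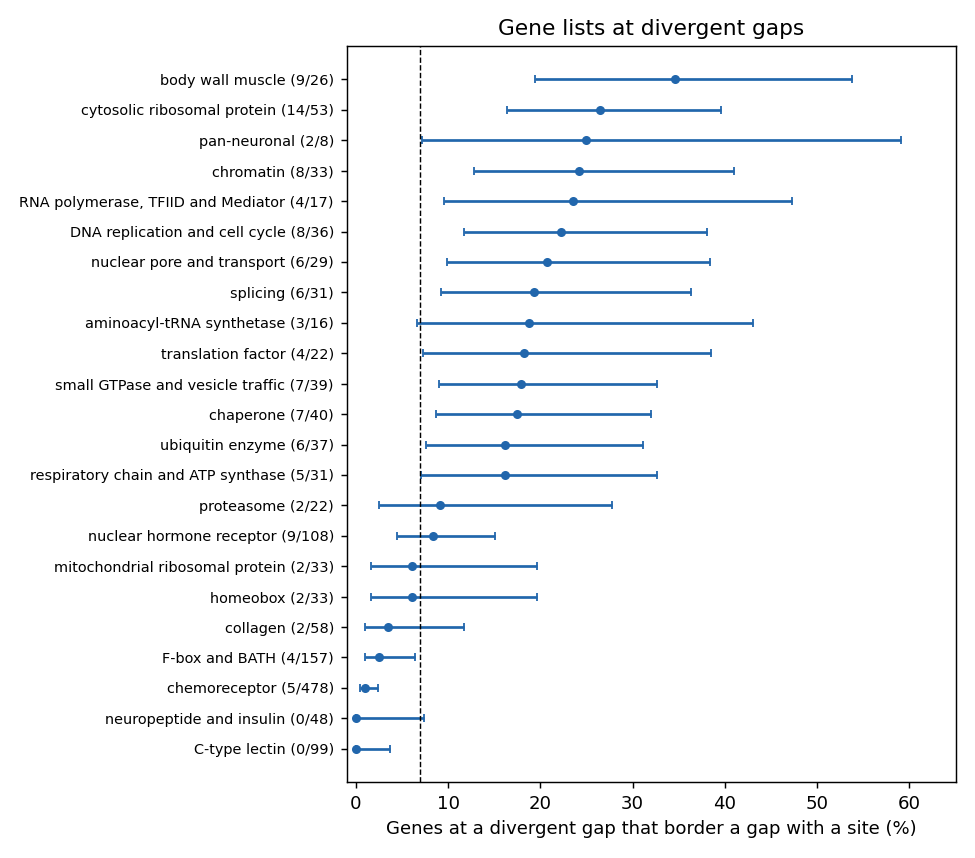
Share of the genes at divergent gaps that border a gap with a site (horizontal axis, percent) for each gene list (vertical axis, with counts), with 95% Wilson intervals; the dashed line is the share over all genes at divergent gaps, 6.94%. Body wall muscle, at 34.6%, and cytosolic ribosomal protein genes, at 26.4%, lie farthest above the line, and genes on the chemoreceptor list, at 1.05%, lie below it.

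In 9 site gaps both neighbours were on a list. These pairs were singled out after their values were seen. The splicing genes rsp-2 and rsp-1 share a gap of 406 bp, with the site 292 bp and 115 bp from the starts and signals of 40.29 in replicate 1 and 66.31 in replicate 2. The ribosomal gene rpl-7A and the SET domain gene set-21 share one of 253 bp, with signals of 41.05 and 47.95. The elongation factor gene eef-1A.1 and rfc-4, of the replication factor C clamp loader, share one of 540 bp, with 50.51 and 44.67. The chaperone gene hsp-110 and the proteasome gene rpn-3 share one of 443 bp, with 61.51 in replicate 1 and 28.64 in replicate 2, rank 3117, so this site rests mainly on replicate 1.

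DNA words were sought on both strands within 50 bp of each summit. TGACCA, which mammalian BCL11A binds, was in 6 of 314 member sites (1.91%, 0.879 to 4.11), 3.93% of sub-threshold members and 3.71% of all nuclear pooled regions. TATAAA, of TATA boxes, was in 3.50% of member sites and 9.30% of sub-threshold members. GAGAGA was in 27.4% (22.8 to 32.6) against 16.1% (14.8 to 17.5), and in 33.1% of tandem sites. CCAAT was in 20.1% of member sites (16.0 to 24.8) and 12.6% of tandem sites (8.94 to 17.4), with 18.8% in sub-threshold members. The E-box CACGTG was in 0.955% of member sites (0.325 to 2.77) and 4.18% of tandem sites (2.29 to 7.53). TTTTTT was in 19.4% of member sites against 35.2% of sub-threshold members, and CGCGCG in 8.92% against 3.08%, in windows that differ in GC content as given above. GGCGGG was in 6.05% against 4.65%, and TTTCAG, the worm 3′ splice site word, in 7.01% against 9.34%.

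TGCGGC was picked after all 6-letter words had been counted in these sites, so its frequency is a description. It was in 47 of the 314 member sites (14.97%, 11.5 to 19.3), 3.22% of sub-threshold members (2.63 to 3.94) and 6.69% of tandem sites (4.16 to 10.6). Over all nuclear pooled regions the share was 3.57%, and in windows of the same length just before the start of every coding gene 1.22%. Among windows with at least 45% GC it was 16.5% of member sites (12.2 to 21.8), 5.85% of sub-threshold members (4.56 to 7.49) and 8.29% of tandem sites (5.09 to 13.2). The 47 sites with the word lay a median of 154 bp from the nearer start against 272 bp for the other 267, and 46.8% of them had both starts within 500 bp against 27.0%. The gaps of the 47 were also shorter, with a median of 666 bp against 2007 bp, which brings both starts nearer. These distances were not matched for gap length. The median pooled signal of the 47 was 116.6 against 111.5. Of the 15 strongest sites 4 had the word: those of mlcd-1/idhg-1, ears-2/uncp-18, ecps-1/atx-2 and Y71G12B.30/chaf-2.

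Some member sites lay on repeated DNA. A 20-letter word with at least 10 copies in the genome was in the window of 11.1% of member sites (35, 8.13 to 15.1), 10.6% of sub-threshold members and 10.5% of tandem sites, so repeats were about as common in each. How the authors treated reads that fit several places is not given in the sources used here. The repeats shown above were singled out after these counts. The first has 67 copies at 42 places in the genome, and 7 member sites, 3 sub-threshold members and 1 tandem site held it. The sites were in the gaps eel-1/ivph-3, spl-1/rps-24, nrde-2/atad-3, supr-1/dnj-28, smrd-1/enu-3.1, mzt-1/enu-3.3 and C08F8.9/cpt-2. Replicate 1 gave them signals from 43.36 to 220.2 and replicate 2 from 44.19 to 189.5. The highest values, at eel-1, are those of a region that also overlaps the stronger site of that gap. That stronger site is not among the 7, so these values cannot be assigned to the repeat. The other sites reached 136.4 in replicate 1 and 136.5 in replicate 2. Of the 67 copies 32 lay within 100 bp of the summit of a pooled region, and 11 of these within that distance of the summit of a site.

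The second repeat has 103 copies at 63 places and was in 6 member sites, 4 sub-threshold members and 2 tandem sites. Its strongest sites were a pair in the 344 bp gap of ruvb-1, an AAA ATPase gene, and tofu-1, a gene of piRNA production, with pooled signals of 138.7 and 119.4. These overlap and match the same region in each replicate, ranked 268 and 458, so they are not independent. The others lay between C55A6.1 and C55A6.10, czw-1 and F20D12.12, cids-2 and phip-1, and F13H8.8 and F13H8.2. At C55A6.1 the signals were 65.98 in replicate 1 and 68.23 in replicate 2. Of the 103 copies 30 lay within 100 bp of the summit of a pooled region, and 11 of these within that distance of the summit of a site. Most copies of either repeat thus had neither that near, and several copies can share a place.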

How the data were processed

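The authors deposited lists of enriched regions for each replicate and for the pooled reads on ce11 (WBcel235), with a signal for each region, and a list of the pooled regions past the irreproducible discovery rate threshold, per the labels and the file headers. The deposited summit offsets and positions are other values, used for placing regions. Neither the aligner nor the peak caller is named, and the threshold level is not given in the sources used here. Sequencing depth is unknown, and the control libraries were not analysed here. The ce10 lists were not used.

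Summits were placed on the Ensembl release 115 annotation of WBcel235, sequences were read from the RefSeq genome of that build, and positions are 1-based. A gene start is the outer end of the annotated gene. Shares have 95% Wilson intervals, or Clopper-Pearson intervals for replicate support, that cover counting error only. They were compared by two-sided Fisher's exact tests at 0.05 with log-scale intervals for odds ratios, and strata by Mantel-Haenszel odds ratios. With 1 group, no test compares conditions. A member's replicate value is that of the strongest region overlapping it.

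The members, gene lists and words were chosen with earlier results of these data known. Named are the 15 strongest member sites, up to 2 genes of each list with the strongest site, the 3 gaps with most sites, the members next to each limit, and those said to be chosen after their values were seen. The gene lists hold genes matched by name pattern, so a list can hold genes of another kind and miss genes of its own. Placement and the share test were tested on simulated data. Calculations ran in Python 3.11.15 (scipy 1.17.1, statsmodels 0.14.6, pandas 2.3.3, numpy 2.4.6), plots in matplotlib 3.10.9.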

Additional observations from a re-analysis of the deposited data

How the results depend on the processing

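The 4 tests were repeated with the 532 strongest sites, each replicate's list alone, other distances from small RNA genes, neighbours of any biotype, other backgrounds, strata and start distances, and, added after seeing the data, without windows that hold repeated words. In each replicate's own list the 1065 regions of highest signal were taken as sites, which is not the authors' threshold. Direction and call were kept in 35 of the 36 repeats. The exception was divergent against convergent gaps with only the strongest sub-threshold regions, an odds ratio of 1.05 (exact p = 1), and the cause was not tested. The same comparison gave 2.16 when regions up to the edge of small RNA genes were kept and 4.41 without repeated words. Odds ratios ran from 1.50 to 2.02 against tandem regions, from 1.05 to 4.41 against convergent regions, from 2.72 to 3.59 for gaps and from 2.74 to 3.84 for summits near a start. Without replicate 1 or 2 they were 1.71 to 1.74 against tandem regions, 3.32 to 3.50 against convergent regions, 3.11 to 3.20 for gaps and 3.05 to 3.84 near a start. Members in both replicates fell from 55.9% to 48.1% with an overlap of at least 1/2 of both regions and to 36.5% with summits within 100 bp. Without replicate 1 the gap upstream of bcl-11 had 4 sites, without replicate 2 it had 3, and among the 532 strongest 2. Depth is unknown, so what it limits cannot be stated, and no control was analysed here, so the sites were not set against an input.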
